A study of Mus musculus with 9 samples.

Results

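The acinar transcription factors considered here are 8 genes, Ptf1a, Rbpjl, Nr5a2, Bhlha15, Gata4, Gata6, Mecom and Foxp2, taken by name as a set and found by symbol among the 55453 gene symbols of the count files. All 8 passed the filter on low counts and were among the 19166 genes tested. They were measured in bulk RNA-seq of whole pancreas from mouse embryos at e18.5, in 9 libraries of 3 genotype labels with 3 libraries each, on a mixed C57BL6 background. Control libraries carried Pdx1:Cre alone, a Cre recombinase under the promoter of the pancreatic factor Pdx1. The second label adds Grg3 and the third adds Grg3 and Grg4, the Groucho co-repressors encoded by Tle3 and Tle4. All 3 groups therefore share the Cre transgene, which acts in the Pdx1 lineage and its descendants, while vessels, mesenchyme and immune cells of the dissected organ lie outside that lineage. The labels do not state the kind of Grg3 and Grg4 allele or whether the libraries of a group came from separate litters, so p-values measure the spread between these libraries.

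Acinar cells make and secrete the digestive enzymes of the pancreas. Their enzyme genes are driven by PTF1, a complex of the basic helix-loop-helix factor Ptf1a, an E-protein partner and another subunit. That subunit binds a TGGGAA-like box and is Rbpj in the early organ and its acinar relative Rbpjl later. Nr5a2, a nuclear receptor, acts with PTF1 on enzyme promoters, and Bhlha15 (also called Mist1) scales up the secretory machinery and granules. Gata4 and Gata6 are zinc finger factors needed for pancreas formation and, for Gata6, acinar maintenance. Mecom is a zinc finger factor expressed in acinar and other cells, and Foxp2 is a forkhead factor.

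Promoter stretches with letters like those PTF1 is known to bind, a TGGGAA box near a CANNTG box, are shown for 1 of the factors and for enzymes described below. RefSeq promoters on GRCm38.p6 were matched for 5 of the 8 factors and 26 of the 34 genes on the list of enzymes and granule proteins. The 250 bases before each transcript start were searched on both strands for TGGGAA within 25 bases of CANNTG, and the capitals mark the matched letters. The complement of TGGGAA reads TTCCCA. Such a pair was present in 1 of the 5 factor promoters, in 5 of the 26 enzyme promoters (19.2%) and in 5.78% of all 27025 genes with a promoter. The factor was Rbpjl (chr2:164403078-164403118, plus strand), and the enzymes shown are the trypsinogen Prss1 (chr6:41458805-41458851, plus strand), the chymotrypsinogen Ctrb1 (chr8:111691187-111691227, minus strand), the carboxypeptidase Cpa1 (chr6:30639168-30639215, plus strand) and the carboxyl ester lipase Cel (chr2:28563451-28563502, minus strand).
Rbpjl: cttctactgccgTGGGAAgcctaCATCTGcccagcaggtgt
Prss1: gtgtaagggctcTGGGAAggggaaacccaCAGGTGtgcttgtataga
Ctrb1: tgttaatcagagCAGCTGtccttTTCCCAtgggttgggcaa
Cpa1: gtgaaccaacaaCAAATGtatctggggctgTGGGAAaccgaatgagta
Cel: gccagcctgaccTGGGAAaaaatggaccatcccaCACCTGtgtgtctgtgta

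A loose form of the core of the Nr5a2 motif, AAGGNCA with any base at N, was searched on either strand. It was present in 17 of 26 enzyme promoters (65.4%), in 1 of the 5 factor promoters and in 19.7% of all genes with a promoter. In Ctrb1 it overlaps the pair above. The stretches around the matches of the elastase genes Cela3a and Cela3b are identical, so these promoters are not separate cases. The matches of the chymotrypsin-like protease Ctrl (chr8:105933875-105933905, minus strand), the elastase Cela1 (chr15:100687958-100687988, minus strand) and Cel (chr2:28563413-28563443, minus strand) are printed with the core in capitals. These are matches of letters and say nothing of binding.
Ctrl: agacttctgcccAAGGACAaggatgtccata
Cela1: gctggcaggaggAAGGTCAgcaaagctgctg
Cel: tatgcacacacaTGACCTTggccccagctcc

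Gene counts summed to 46817453 to 62744499 reads per library. Of the targeted genes, Tle3 was higher and not lower in both mutant labels (log2 change 1.24 and 1.05 against control, edgeR adjusted p = 0.00027 and 0.000557). Tle4 was not lower either, with changes of 0.65 and 0.58 that did not pass (edgeR adjusted p = 0.132 and 0.155). Between the mutant labels Tle4 differed by -0.07 (edgeR adjusted p = 0.886). Groups are therefore called by their label, and directions hold between labels. All 3 libraries labelled Grg3 Grg4 were male by Xist and Ddx3y, against 1 of 3 in each other group, so sex and this label are confounded but for the single male library of each other group. A pair of libraries stood apart. Grg3 replicate 2 had the lowest sum of the enzyme list (214086 CPM, the count scaled to 1000000 reads, against 259562 to 456458 elsewhere) and the highest sum of 8 mesenchyme genes (13153 CPM against 8335 to 10260). Grg3 Grg4 replicate 2 had the highest sum of 10 muscle genes (2316 CPM against 126 to 982). Liver genes summed to 6.65 to 14.3 CPM in the controls, 84.5 to 1464 in the libraries labelled Grg3 and 532 to 1687 in those labelled Grg3 Grg4. Of these 10 genes, 8 were called higher in each comparison with control, and none was at 0 in any group. Over all genes tested, 1.40% and 2.14% were called in these comparisons, in either direction. Gata4, Gata6 and Nr5a2 are also expressed in liver, and the part of these liver and muscle reads in their values was not tested.

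In the controls the level per kilobase of exon ranked the factors as follows, in CPM per kilobase (RPKM, mean ± SD, n = 3). Bhlha15 stood at 97.4 ± 5.51 and Rbpjl at 94.5 ± 15.2, with ranges of 91.2 to 102 and 83.2 to 112 that overlapped. Ptf1a followed at 24.95 ± 1.10, Gata4 at 20.9 ± 1.03 and Nr5a2 at 14.2 ± 0.298. Gata6 stood at 6.47 ± 0.287, Mecom at 2.99 ± 0.267 and Foxp2 at 0.523 ± 0.0537. From Rbpjl downwards no neighbours in this order overlapped between control libraries. In the libraries labelled Grg3 Grg4 the leading pair separated, with Rbpjl at 133 ± 12.3 RPKM (122 to 146) above Bhlha15 at 73.1 ± 8.95 (67.6 to 83.4).

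None of the 8 factors passed the test in any of the 3 comparisons, while 8 and 11 of the 34 enzyme and granule genes were called lower in the libraries labelled Grg3 and Grg3 Grg4 (0.694% and 0.897% of all genes tested). The edgeR quasi-likelihood test called 0 of 8 factors in the libraries labelled Grg3 against control, beside 1.40% of all genes tested, and 0 had an unadjusted p under 0.05 beside 19.1% of genes. In the libraries labelled Grg3 Grg4 against control it called 0 of 8 beside 2.14% of genes, and 2 factors, Rbpjl (higher) and Nr5a2 (lower), had an unadjusted p under 0.05 beside 20.2% of genes. Between the mutant labels it called 0 of 8 beside 0.188% of genes, and 2 factors, Rbpjl (higher) and Gata6 (lower), had an unadjusted p under 0.05 beside 17.3% of genes. DESeq2 and limma's voom called 0 of 8 in each comparison as well. The 2 comparisons with control share the control libraries. The median log2 change of the 8 factors was -0.16 and -0.15 against control for the labels Grg3 and Grg3 Grg4, beside 0.02 and 0.01 over all genes tested. Replicates did not overlap between control and Grg3 for 2 of 8 factors (24.6% of genes), between control and Grg3 Grg4 for 4 of 8 (29.1%), and between the mutant labels for 1 of 8 (21.1%).

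**Figure D1:**
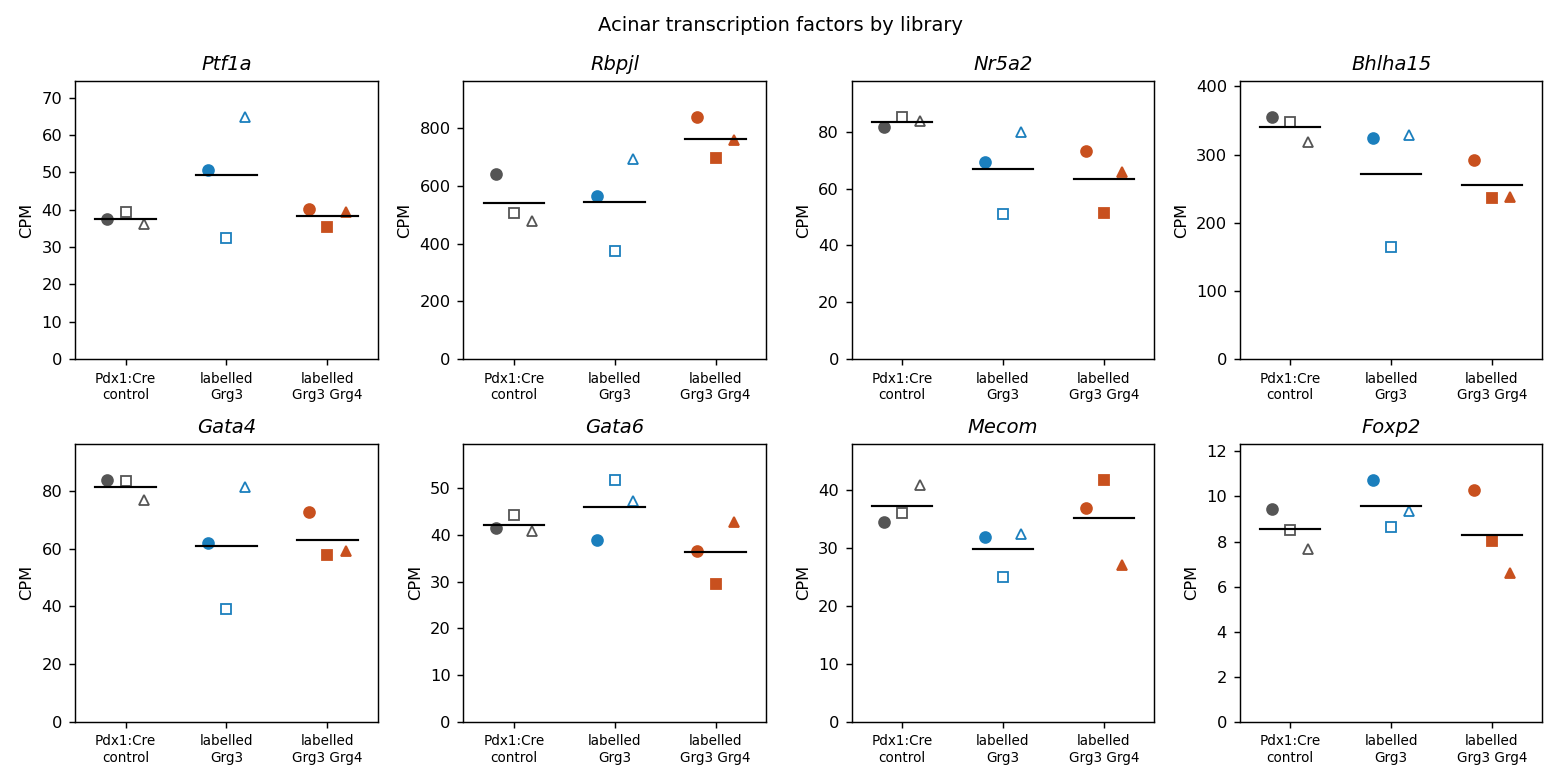
Level of each of the 8 factors in CPM (vertical axis, from 0) in the 9 libraries, grouped by label. Circles, squares and triangles are replicates 1, 2 and 3, filled symbols are male and open symbols female libraries, and bars are group means; Rbpjl is higher in all 3 libraries labelled Grg3 Grg4 than in any other library, and Grg3 replicate 2 is the lowest library for Ptf1a, Rbpjl, Nr5a2, Bhlha15, Gata4 and Mecom.

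Ptf1a (chromosome 2, 19445663 to 19447501, plus strand, GRCm38), a DNA-binding subunit of PTF1 that starts the acinar programme, was measured at 37.4, 39.4 and 36.1 CPM in control replicates 1, 2 and 3. The libraries labelled Grg3 held 50.6, 32.3 and 64.7 CPM and those labelled Grg3 Grg4 held 40.2, 35.3 and 39.4 CPM. Grg3 replicates 1 and 3 lay above every control and Grg3 replicate 2 below every control, while the double label overlapped with control. The log2 change in the libraries labelled Grg3 was 0.39 (SE 0.20, 95% interval -0.05 to 0.82) and did not pass (edgeR adjusted p = 0.316). Without Grg3 replicate 2 it was 0.62 and passed (edgeR adjusted p = 0.0343), and without Grg3 replicate 2 and Grg3 Grg4 replicate 2 it was also 0.62 (edgeR adjusted p = 0.0194). In the libraries labelled Grg3 Grg4 the change was 0.03 (-0.41 to 0.46; edgeR adjusted p = 0.960). An antisense gene, Ptf1aos, covers 40.4% of the exon bases of Ptf1a and held 2 to 20 reads per library. Without knowledge of the strand setting, reads of this stretch cannot be assigned, so the level of Ptf1a is uncertain.

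Rbpjl (chromosome 2, 164403141 to 164415448, plus strand), the subunit of PTF1 that replaces Rbpj as acinar cells mature, was the factor with the largest difference in the double label. Its level was 641, 507 and 477 CPM in the controls, 566, 373 and 692 CPM in the libraries labelled Grg3, and 837, 697 and 757 CPM in those labelled Grg3 Grg4. Each library of the double label lay above all 6 others, and the male control lay above both female ones. Rbpjl was higher than control by 0.50 (SE 0.21, 95% interval 0.04 to 0.95) on the log2 scale in the double label which did not pass (edgeR adjusted p = 0.216). With embryo sex as a term the change was 0.35 (edgeR adjusted p = 0.548), and among the 5 male libraries the single control and the single library labelled Grg3, at 641 and 566 CPM, lay below the 3 of the double label. Against the libraries labelled Grg3 the difference was 0.49 (0.03 to 0.95; edgeR adjusted p = 0.258), and in the libraries labelled Grg3 against control the change was 0.01 (-0.45 to 0.46; edgeR adjusted p = 0.993). Exons of Matn4 on the other strand share 2.60% of its exon bases, and Matn4 held 14.5 to 20.9 CPM.

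Rbpj, the subunit shared with Notch signalling that Rbpjl replaces, went the other way in the double label. Its level was 44.5, 44.3 and 44.3 CPM in the controls, 29.6, 54.8 and 42.4 CPM in the libraries labelled Grg3, and 28.5, 17.8 and 16.4 CPM in those labelled Grg3 Grg4. Rbpj fell by 1.09 (SE 0.24) on the log2 scale in the double label (edgeR adjusted p = 0.0484) and was lower than control in 3 of 3 libraries. The call ended with embryo sex as a term (edgeR adjusted p = 0.213) and in 7 of 16 alternatives, which left out each control in turn or replicate 2 or 3 of the double label, or took sex or the replicate number into the fit. The log2 change stayed between -1.37 and -0.87 in all 16. The near-identical copy Rbpj-ps3 rose in the same comparison by 3.29 (SE 0.60; edgeR adjusted p = 0.0284), from 0.605, 0.419 and 0.682 CPM to 3.14, 6.66 and 6.92 CPM, and Grg3 replicate 1 held 2.56 CPM. The 4 libraries with the most reads on Rbpj-ps3 were the 4 with the fewest on Rbpj, 3 of them of the double label. Whether reads were split between the copies was not tested, and the values of each copy alone are uncertain. The pseudogene was looked at after the values of Rbpj were seen. Reads of both copies together summed to 44.7 to 45.1 CPM in the controls and 23.4 to 31.6 CPM in the double label. In Grg3 replicates 1, 2 and 3 they summed to 32.1, 55.4 and 43.1 CPM. Reads that aligned to several places were left out, so the sum cannot recover reads that fit both copies equally. The ratio of Rbpjl to both copies was 10.6 to 14.2 in the controls, 6.74 to 17.6 in the libraries labelled Grg3, and 26.5 to 32.4 in those labelled Grg3 Grg4, where it did not overlap with the other groups. This ratio was formed after the values of Rbpj were seen and was not tested or set beside other pairs of genes. Of single genes, 29.1% did not overlap between control and Grg3 Grg4.

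**Figure D2:**
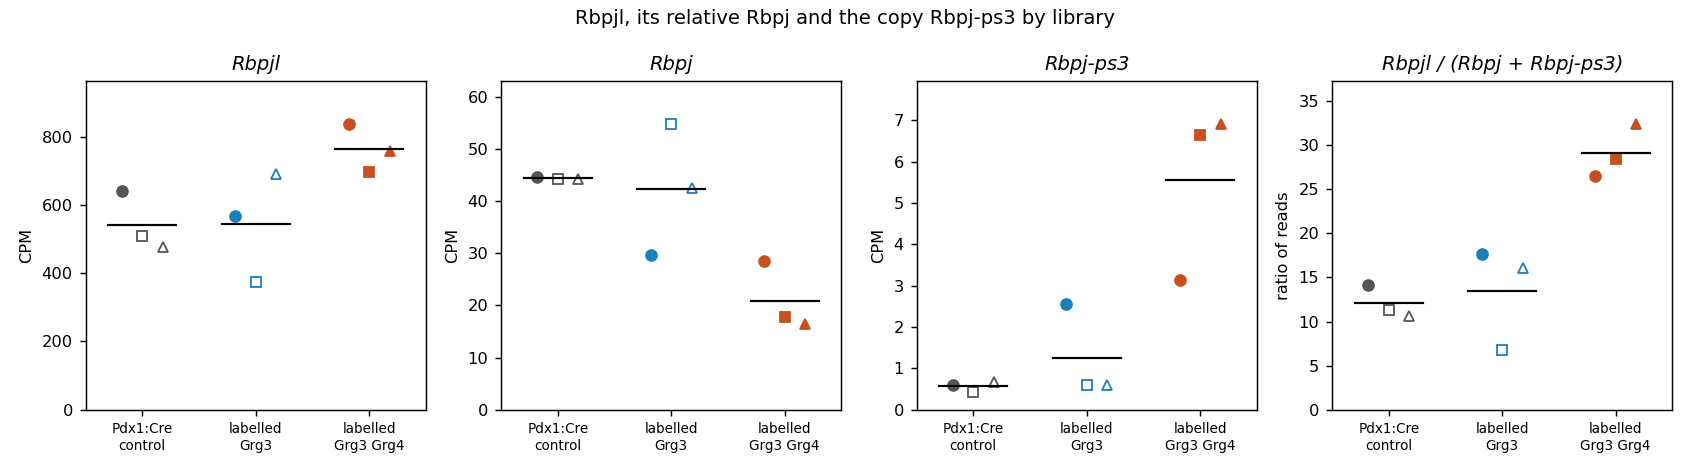
Rbpjl, Rbpj and the copy Rbpj-ps3 in CPM, and the ratio of Rbpjl reads to the reads of Rbpj and Rbpj-ps3 together, by library and label (symbols as above, bars are group means, axes from 0). In the libraries labelled Grg3 Grg4 the ratio lies between 26.5 and 32.4, above the 6.74 to 17.6 of all other libraries. The ratio was formed after the values of Rbpj were seen and was not tested.

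Nr5a2 (chromosome 1, 136842571 to 136960448, minus strand) was lower in both mutant labels without passing. It stood at 81.7, 85.2 and 83.8 CPM in the controls, 69.5, 51.1 and 80.1 CPM in the libraries labelled Grg3 and 73.4, 51.6 and 65.7 CPM in those labelled Grg3 Grg4. Every mutant library lay below every control, and replicate 2 was lowest in both labels. The log2 changes were -0.32 (95% interval -0.68 to 0.04; edgeR adjusted p = 0.316) and -0.39 (-0.76 to -0.03; edgeR adjusted p = 0.214).

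Bhlha15 (chromosome 5, 144190286 to 144194441, plus strand) stood at 355, 348 and 318 CPM in the controls, 324, 164 and 328 CPM in the libraries labelled Grg3 and 291, 236 and 238 CPM in those labelled Grg3 Grg4. The double label lay below all controls, and in the single label only replicate 2 stood clearly apart, at 164 CPM. The log2 changes of -0.32 (-0.82 to 0.17) and -0.41 (-0.91 to 0.08) missed the threshold (edgeR adjusted p = 0.466 and 0.335). Of 4 genes known as its targets, 0 passed in either comparison with control, beside 1.40% and 2.14% of all genes tested. The granule GTPase gene Rab3d changed by -0.45 and -0.36, the related Rab26 by -0.23 and 0.10, the gap junction gene Gjb1 by -0.41 and -0.34, and the Golgi calcium pump gene Atp2c2 by -0.18 and -0.40 for the labels Grg3 and Grg3 Grg4 (edgeR adjusted p from 0.245 to 0.811).

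Gata4 (chromosome 14, 63198922 to 63271692, minus strand) stood at 83.8, 83.6 and 76.8 CPM in the controls. It stood at 62.0, 39.1 and 81.4 CPM in the libraries labelled Grg3 and at 72.7, 57.7 and 59.1 CPM in those labelled Grg3 Grg4. The double label lay below all controls and the single label overlapped with them. The log2 changes were -0.42 (-0.90 to 0.05) and -0.37 (-0.84 to 0.11), with edgeR adjusted p of 0.314 and 0.372.

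Gata6 (chromosome 18, 11052064 to 11085635, plus strand) had another pattern among libraries than its relative Gata4. It stood at 41.4, 44.2 and 40.7 CPM in the controls, 38.9, 51.7 and 47.2 CPM in the libraries labelled Grg3 and 36.5, 29.4 and 42.7 CPM in those labelled Grg3 Grg4. Grg3 replicate 2, the lowest library for Gata4, was the highest for Gata6, and it also held the most mesenchyme reads (13153 CPM over 8 genes). The ratio of Gata4 to Gata6 reads was 1.89 to 2.03 in the controls, 0.756 in Grg3 replicate 2 and 1.38 to 1.99 in the other mutant libraries. The log2 changes of Gata6 were 0.13 (-0.18 to 0.44) and -0.22 (-0.53 to 0.09), with edgeR adjusted p of 0.665 and 0.423. Between the mutant labels it differed by -0.34 (-0.65 to -0.03), which did not pass (edgeR adjusted p = 0.244).

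Mecom (chromosome 3, 29951296 to 30548008, minus strand) stood at 34.5, 36.0 and 40.9 CPM in the controls, 31.8, 24.99 and 32.4 CPM in the libraries labelled Grg3 and 36.8, 41.7 and 27.0 CPM in those labelled Grg3 Grg4. The single label lay below all controls, and the double label spread on both sides of them. The log2 changes were -0.32 (-0.67 to 0.03) and -0.08 (-0.43 to 0.28; edgeR adjusted p = 0.303 and 0.827). Foxp2 (chromosome 6, 14901349 to 15441977, plus strand) was the least abundant of the factors, with 323 to 631 reads per library. It stood at 9.43, 8.53 and 7.68 CPM in the controls, 10.7, 8.66 and 9.36 CPM in the single label and 10.3, 8.03 and 6.59 CPM in the double label. All 3 groups overlapped, and its log2 changes were 0.16 (-0.21 to 0.54) and -0.04 (-0.42 to 0.34), with edgeR adjusted p of 0.642 and 0.920.

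Beside these levels, 33 of 34 enzyme and granule genes had a log2 change below 0 in each comparison with control. Of the 34, 8 fell and 26 did not pass in the libraries labelled Grg3, where 0.694% of all genes were called lower. In those labelled Grg3 Grg4, 11 fell and 23 did not pass, where 0.897% of all genes were called lower. The median over the list was -0.56 and -0.73 on the log2 scale, beside 0.02 and 0.01 over all genes tested, and the changes ran from -2.59 to 0.20 and from -3.03 to 0.35. For the labels Grg3 and Grg3 Grg4 the count of falls was 5 and 4 with embryo sex as a term. DESeq2 gave 16 and 19, and in the double label voom gave 18 and the fit of the 6 libraries compared gave 19. With a library left out it was 3 (without control replicate 2) to 11 (without Grg3 replicate 3) and 4 (without control replicate 2) to 10 (without Grg3 Grg4 replicate 3). The 8 factors spanned -0.42 to 0.39 and -0.41 to 0.50. In bulk tissue, fewer acinar cells and less RNA per acinar cell cannot be told apart.

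The proteases Prss1 and Ctrl fell far more than any factor changed. Ctrl stood at 2967, 3493 and 3441 CPM in the controls, 474, 485 and 810 CPM in the libraries labelled Grg3 and 485, 473 and 577 CPM in those labelled Grg3 Grg4. No mutant library reached a control, and the log2 changes were -2.49 (SE 0.21) and -2.69 (SE 0.22), with edgeR adjusted p of 0.000813 and 0.000469. Prss1, whose promoter holds the TGGGAA pair shown above, stood at 5443 to 5784 CPM in the controls, 618 to 1311 in the single label and 537 to 843 in the double label. Reads of Prss1, Prss3 and Try4 may be split between near-identical trypsinogens, which leaves their single values uncertain. Prss3 changed by -2.26 and -2.44, and Try4 by -1.38 and -1.16 (edgeR adjusted p from 0.00321 to 0.0195).

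Other genes that fell in both labels did so by about 1 log2 unit. The lipase-related Pnliprp2 fell by 1.22 and 1.25 (edgeR adjusted p = 0.0111 and 0.0084), the pancreatic ribonuclease Rnase1 by 1.06 and 1.05 (0.0431 and 0.0358), the kallikrein Klk1 by 1.14 and 1.22 (0.0482 and 0.0331) and the phospholipase Pla2g1b by 1.11 and 1.11 (0.0324 and 0.0277). In the double label the granule proteins Sycn and Zg16 fell by 1.11 and 1.16 (edgeR adjusted p = 0.0197 each) and the trefoil factor Tff2 by 1.69 (edgeR adjusted p = 0.00692). Their changes in the single label were -0.67, -0.82 and -0.84, which missed the threshold (edgeR adjusted p from 0.0674 to 0.0999), and no difference between the labels reached the threshold (edgeR adjusted p between 0.115 and 0.388). With embryo sex as a term Rnase1, Klk1 and Pla2g1b no longer passed in either comparison, nor did Try4, Pnliprp2, Sycn and Zg16 in the double label, although the changes stayed below 0. Over all 16 alternatives, sex included, the log2 changes in the double label stayed between -1.19 and -1.13 for Try4, -1.32 and -1.16 for Pnliprp2, -1.27 and -1.01 for Sycn, -1.22 and -1.06 for Zg16 and -1.12 and -0.97 for Rnase1. Klk1 ran from -1.56 to -1.001 and Pla2g1b from -1.27 to -0.95 there, and in the single label Rnase1 ran from -1.31 to -0.87, Klk1 from -1.20 to -1.06 and Pla2g1b from -1.33 to -0.99. Prss1, Prss3 and Ctrl passed in both comparisons under all 16 alternatives, as did Tff2 in the double label.

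Other enzymes, named as textbook targets of PTF1 and Nr5a2, did not pass with edgeR. The size of their changes cannot show whether known targets were spared, because the called genes were selected by the test. The lists were also chosen with earlier results of these data known. Motif letters were also present in promoters of genes that fell, such as Prss1 (the TGGGAA pair and AAGGNCA) and Ctrl (AAGGNCA). In the double label Cpa1, Cel, Cela1, Ctrb1 and Pnlip lay below control without overlap of replicates, while Amy2a5 overlapped. In the single label Cel and Cela1 lay below control, and the others overlapped. Cpa1 stood at 22014 ± 1922 CPM in the controls and 11980 ± 280.1 in the double label, log2 changes of -0.57 and -0.88 for the labels Grg3 and Grg3 Grg4 (edgeR adjusted p = 0.250 and 0.0952). Cel changed by -0.92 and -0.77, Cela1 by -0.42 and -0.69, and Ctrb1, the most abundant of the list in CPM at 122709 ± 6397 in the controls, by -0.22 and -0.51 (edgeR adjusted p from 0.109 to 0.699). The amylase Amy2a5 changed by -0.46 and -0.25 and the lipase Pnlip, at 2.11 ± 0.135 CPM in the controls, by -0.13 and -0.72 (edgeR adjusted p from 0.176 to 0.839). The related Amy2b, annotated as a pseudogene, held a mean of 6387 CPM in the controls, against 3141 CPM for Amy2a5. In the double label Amy2b held 7852, 3863 and 3706 CPM. Whether reads were split between the amylase copies was not tested, so the value of Amy2a5 alone is uncertain. The pair of TGGGAA and CANNTG was present in the promoter of 1 of 9 matched enzymes that were called and of 4 of 17 that were not, and AAGGNCA in 5 of 9 and 12 of 17.

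**Figure D3:**
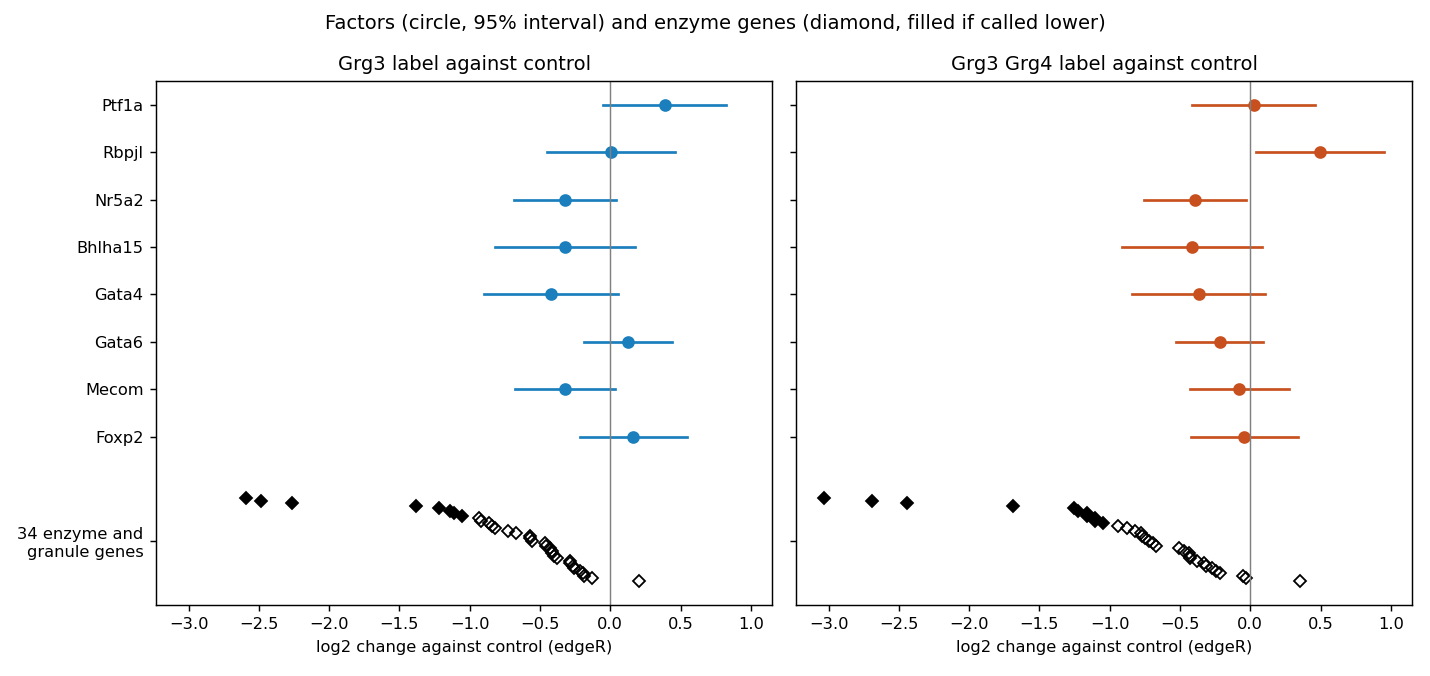
Log2 change against control (horizontal axis, edgeR) for the 8 factors, as circles with their 95% interval, and for the 34 enzyme and granule genes, as diamonds in order of their change and filled where called lower. The left panel is the label Grg3 and the right panel Grg3 Grg4; the factors lie between -0.42 and 0.50 and the enzymes reach down to -3.03.

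The factors were also expressed as reads per 1000 reads of the 34 enzyme and granule genes in the same library. A gene rises on this scale whenever its CPM falls by less than theirs, and reads of a factor from cells other than acinar cells still count. The ratio describes the libraries and was not tested. Ptf1a stood at 0.0939, 0.0863 and 0.0856 reads per 1000 enzyme reads in the controls. It stood at 0.162, 0.151 and 0.160 in the libraries labelled Grg3 and at 0.139, 0.136 and 0.133 in those labelled Grg3 Grg4. On this scale Grg3 replicate 2 no longer stood apart, and all 6 mutant libraries lay above all 3 controls. In the double label the log2 change of Ptf1a in CPM was 0.03, so its higher ratio there goes with the lower enzyme sum. Rbpjl stood at 1.61, 1.11 and 1.13 in the controls, 1.81, 1.74 and 1.71 in the single label and 2.89, 2.69 and 2.55 in the double label. Its 3 groups did not overlap.

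Gata6 was the third factor without overlap, at 0.0965 to 0.104 in the controls, 0.117 to 0.242 in the single label and 0.113 to 0.144 in the double label. The other 5 factors overlapped with control in both labels on this scale. The log2 differences of the ratio from control were 0.15 and 0.18 for Nr5a2, 0.11 and 0.17 for Bhlha15, and 0.02 and 0.22 for Gata4. They were 0.17 and 0.50 for Mecom and 0.66 and 0.53 for Foxp2, against 0.62 and 0.36 for Gata6. Foxp2 thus overlapped with control although its mean difference was larger than that of Gata6 in both labels. Over all genes tested, 32.4% and 69.5% had a ratio above all controls in the labels Grg3 and Grg3 Grg4, beside 3 of 8 factors in each.

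**Figure D4:**
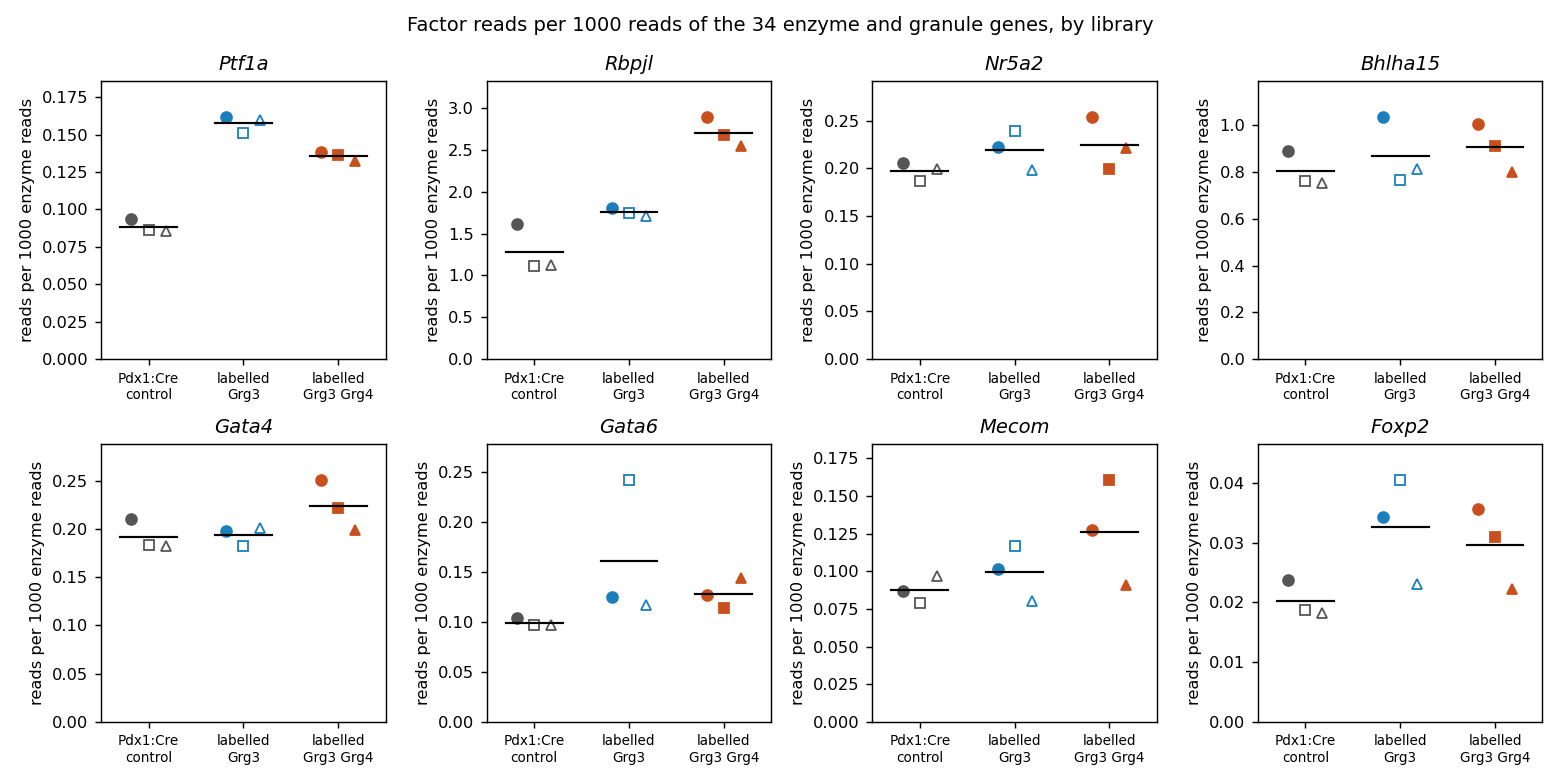
Reads of each factor per 1000 reads of the 34 enzyme and granule genes (vertical axis, from 0) in the 9 libraries, with symbols for replicate and sex as in the plot of CPM and bars for group means. Ptf1a, Rbpjl and Gata6 lie above all controls in all 6 mutant libraries, and the 3 libraries labelled Grg3 lie close together for Ptf1a, at 0.151 to 0.162. Of all genes tested, 32.4% lie above all controls on this scale in the label Grg3 and 69.5% in the label Grg3 Grg4.

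Partners, inhibitors and relatives of the factors were read from lists. Of 11 partners and inhibitors, 1 rose in the single label and 1 fell in the double label, which were Id1 and Rbpj. Over all genes tested, 1.40% and 2.14% were called in these comparisons with control. Id1 belongs to the Id proteins, which bind E-proteins and keep them from DNA. It stood at 23.5, 29.0 and 22.0 CPM in the controls and at 42.2, 44.7 and 38.6 CPM in the libraries labelled Grg3, a rise of 0.75 (SE 0.14; edgeR adjusted p = 0.0324) seen in 3 of 3 libraries. That call ended in 7 of 16 alternatives, among them embryo sex as a term (edgeR adjusted p = 0.0535), the replicate number as a block (0.0566) and leaving out any control or Grg3 replicate 1 or 2, while the log2 change stayed between 0.67 and 0.88. In the double label the change was 0.52 and did not pass (edgeR adjusted p = 0.0769). Its relatives Id2, Id3 and Id4, looked at because Id1 passed, changed by 0.28, 0.56 and 0.77 in the single label and by 0.20, 0.56 and 0.89 in the double label, and none passed (edgeR adjusted p from 0.0921 to 0.186). The E-protein genes Tcf3, Tcf4 and Tcf12 changed by 0.11, -0.31 and -0.13 in the single and by 0.16, -0.23 and -0.04 in the double label, and the GATA cofactor gene Zfpm1 by -0.17 and -0.27, and none passed (edgeR adjusted p from 0.105 to 0.824).

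Of 9 relatives of the factors 8 were tested and 0 passed in either comparison with control, beside 1.40% and 2.14% of all genes tested. The most abundant were Foxp4 (-0.07 and -0.05), Foxp1 (0.14 and -0.16), Prdm16, a relative of Mecom (-0.19 and -0.10), and Gata2 (0.32 and 0.63), with edgeR adjusted p from 0.1003 to 0.774. Of 18 other regulators of pancreatic cell fate and secretion, 1 was called in the single label, as higher, beside 1.40% of all genes tested. In the double label 1 was called higher and 2 lower, beside 2.14% of all genes. Foxa1, a pioneer factor of endoderm, was called higher in both labels, by 8.70 and 8.66 (edgeR adjusted p = 1.73e-07 and 1.29e-07). It was nearly absent from the controls, with 1 to 2 reads per library against 660 to 786 reads per mutant library. Both comparisons share these controls. Whether the difference belongs to the control libraries or to the mutant labels was not tested. Pdx1, whose promoter drives the Cre, fell by 0.60 (SE 0.11; edgeR adjusted p = 0.0306) in the double label and Foxa2 by 0.57 (SE 0.13; edgeR adjusted p = 0.0488), and both calls ended with sex as a term (edgeR adjusted p = 0.162 and 0.149) and with any control left out. Their log2 changes stayed between -0.72 and -0.48 for Pdx1 and between -0.66 and -0.45 for Foxa2 in all 16 alternatives. The 10 genes of the endocrine list were lower in the same label. They summed to 5933 to 7152 CPM in the controls, 3585 to 5736 in the single label and 1901 to 4154 in the double label. The part of endocrine RNA in the values of Pdx1 and Foxa2 was not tested. Xbp1, which drives the secretory response upstream of Bhlha15, changed by -0.24 and -0.22, Creb3l1 by -0.00040 and -0.21, Creb3l2 by -0.09 and -0.10, and the duct and progenitor factor Sox9 by -0.10 and -0.20 (edgeR adjusted p from 0.305 to 0.999).

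The genes most like the factors with the smallest p of each comparison were taken by Pearson's r of log2 CPM over the 9 libraries, among 11346 genes with at least 5 CPM. The libraries share labels, depth and tissue makeup, so these values are a description. For Nr5a2 they were the zinc transporter gene Slc30a7 (r = 0.99, Spearman's rho = 0.98), the epithelial splicing factor gene Esrp1 (0.98 and 0.88) and Tm9sf3 (0.98 and 0.95), with r of 0.94 to 0.96 without the 2 libraries farthest from the median of Nr5a2, replicate 2 of each mutant label. For Gata6 they were Cav1, which encodes caveolin (r = 0.97, rho = 0.95), Snrk (0.96 and 0.87) and the thrombomodulin gene Thbd (0.96 and 0.88), with r of 0.80 to 0.85 without the same 2 libraries. For Mecom they were Mpp5 (r = 0.93, rho = 0.92), Il1rap (0.92 and 0.83) and Mmachc (0.91 and 0.92), with r of 0.78 to 0.86 without Grg3 replicate 2 and Grg3 Grg4 replicate 3.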

How the data were processed

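Each deposited file gives whole read counts by gene symbol for 1 library, as the authors left them, without scaling. The submitters' processing notes list FastQC, Trim Galore, HISAT2, HTSeq, bedtools, DESeq2, GRCm38 and mm10. Versions, roles, gene annotation and strand setting are not stated there. Rows that name no gene (5 per file) held 28.5% to 33.2% of reads and were left out, 15.8% to 20.7% being reads that aligned to several places.

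The quasi-likelihood F test (2-sided) came from edgeR 4.0.16 under R 4.3.3, with TMM scaling and filterByExpr (minimum count 10, minimum total 15). A single fit of the 9 libraries took the label as its only factor, and a gene was called at a Benjamini-Hochberg adjusted p under 0.05 over 19166 genes. CPM are counts per 1000000 after TMM scaling. Intervals of 95% use the degrees of freedom of the test. RPKM divides CPM by the union of exons in GENCODE M21 (GRCm38), where all 169 listed genes were found and which may differ from the models used for counting. The test was tested on simulated data.

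Alternatives were DESeq2 1.42.0 size factors and Wald test, limma 3.58.1 voom with quality weights, scaling without the enzyme genes, other filters, the replicate number as a block, embryo sex as a term, the 6 libraries compared and each library left out in turn. Leaving out both libraries that stand apart was chosen after seeing the data. The members and lists were chosen with earlier results of these data known. Named are the 8 factors; enzymes called against control and 6 textbook targets; partners, targets, relatives and regulators that were called or, up to 4 a list, most abundant; and the 3 genes most like the factor with the smallest p in each comparison. Rbpj-ps3, Id2, Id3, Id4 and Amy2b fall outside this rule and were named after their values were seen.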

Additional observations from a re-analysis of the deposited data

How the results depend on the processing

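No factor was called under these alternatives in any comparison, except Ptf1a in the label Grg3 without Grg3 replicate 2 (0 to 1 factors called with a library left out, and 1 without both libraries that stand apart). The cause of the following changes was not tested. For Grg3 against control, Grg3 Grg4 against control and Grg3 Grg4 against Grg3, edgeR called 268, 410 and 36 genes. Without the filter it called 586, 930 and 228, and with embryo sex as a term 169, 30 and 4. DESeq2 called 1321, 1454 and 880. With voom the first 2 counts were 421 and 1033. The 6 libraries compared gave 750 and 10 for the last 2 comparisons, and the stricter filter 75 for the last. Without both libraries that stand apart the first and last counts were 567 and 13. With a library left out the counts ran from 32 to 289, 50 to 320 and 6 to 49.

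With the replicate number as a block edgeR called 167, 254 and 11 genes, and Rbpjl changed by -0.0192 in the label Grg3. Libraries that share a number share only that: the correlations of their deviations from the group means ran from -0.0858 to 0.094, and 3, 0 and 3 of 6 libraries correlated best with their own number.

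Enzymes called lower against control numbered 8 and 11. They numbered 5 and 4 with embryo sex, 16 and 19 with DESeq2, and 3 to 11 and 4 to 10 with a library left out. In the label Grg3 Grg4 voom gave 18 and the 6 libraries compared 19. Between the mutant labels 1 was called without the filter and 1 with DESeq2.

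Small changes turned direction. With a library left out, Rbpjl ran from -0.2055 to 0.2159 in the label Grg3. In the label Grg3 Grg4, Ptf1a ran from -0.0117 to 0.0801, Mecom from -0.2176 to 0.0792 and Foxp2 from -0.2259 to 0.0981. Between the mutant labels, Nr5a2 ran from -0.2369 to 0.0754, Bhlha15 from -0.3547 to 0.0642 and Gata4 from -0.1846 to 0.3206. Gata4 was -0.0197 with voom and -0.1274 without both libraries that stand apart, where Mecom was -0.013.

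The median enzyme in place of the sum gave no usable check of the ratio. The median lay between Amy2a5 and Ctrl in every control and between other genes in every mutant library, so its shift is partly a change of gene and not a fall of the enzymes. For the labels Grg3 and Grg3 Grg4 the log2 ratio was 1.677 and 1.6175 for Ptf1a, 1.3169 and 2.097 for Rbpjl, 1.0001 and 1.1839 for Nr5a2, 0.9549 and 1.1731 for Bhlha15, 0.8623 and 1.2199 for Gata4, 1.4624 and 1.3609 for Gata6, 1.0179 and 1.4959 for Mecom, and 1.5101 and 1.5327 for Foxp2. Foxp2, with 323 to 631 reads per library, is the factor whose value depth limits most. Other scalings moved the median of all genes by under 0.01.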
